A study of Homo sapiens with 6 samples.

Results

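The SLC25 genes encode the mitochondrial carriers, a family of small membrane proteins, most of which sit in the inner membrane of mitochondria. The genes were taken as every entry of the deposited gene tables whose symbol is SLC25A followed by a number. This gave 49 of the 62754 entries, for 48 genes, because SLC25A6 lies in the region that the X and Y chromosomes share and is listed once on each. The set therefore includes the erythroid iron carrier SLC25A37 and the glycine carrier SLC25A38, and it leaves out family members with other symbols, such as the uncoupling proteins.

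The study examined how fetal hemoglobin is kept silent by the MLL1 complex, a histone methyltransferase to which menin, the product of MEN1, belongs. RNA came from HUDEP-2 cells, an immortalised line of human erythroid progenitors. Cells of 3 libraries carried a lentiviral shRNA against MEN1 (labelled MEN1sh2, here the knockdown), and cells of the other 3 libraries carried a control shRNA (labelled Controlsh, here the controls). Each library is labelled as a biological replicate, with no word on whether the cultures were separate, so a p-value here measures only the spread between these libraries. All 6 cultures were kept in StemSpan SFEM with erythropoietin (3 units per ml), stem cell factor (50 ng per ml), dexamethasone (1e-06 M) and doxycycline (1 µg per ml), and infected cells of both groups were selected with puromycin (2 µg per ml) from 24 h for 48 h, which makes 72 h after infection. A single hairpin in a single line was used, so that an effect of losing menin and an off-target effect of the hairpin cannot be told apart.

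Mitochondrial carriers share a fold made of repeated pairs of membrane helices, and each moves a small set of metabolites, nucleotides, cofactors or ions between the cytosol and the mitochondrial matrix. They are made on cytosolic ribosomes, pass the outer membrane through the TOM complex, are held by small TIM chaperones in the intermembrane space and are inserted by the TIM22 complex. In erythroid cells the family is known above all for heme synthesis: SLC25A37 brings iron to the matrix for ferrochelatase, and SLC25A38 is needed for the glycine with which the pathway starts.

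MEN1 itself stood at 6.29, 6.44 and 6.88 TPM (a relative level, scaled for transcript length and library total) in the knockdown libraries and at 41.2, 39.6 and 37.1 in the controls (log2 fold change -2.42, SE 0.0803, adjusted p 8.54e-06 in limma). Depth inferred from the deposited coverage was 18400000 to 35800000 read pairs per library, and 13865 to 14361 genes per library reached a TPM of 1. Across all genes tested, libraries of the same group correlated at 0.985 to 0.989 and libraries of different groups at 0.934 to 0.954. Marker genes moved with the groups. Of 10 erythroid markers, 7 rose, none fell and 3 did not pass the test, and their summed TPM was 95907 to 107883 in the knockdown against 55447 to 61495 in the controls. Of 10 genes of terminal erythroid maturation, 8 rose and 2 fell, with sums of 5806 to 6366 against 2645 to 2808. All 7 progenitor markers tested, of 8 listed, fell, with sums of 318 to 369 against 871 to 926. Among them, SOX4 reached the 1 TPM needed for testing in the controls alone, at 0.370 to 0.559 against 2.01 to 2.58 TPM. For SOX4, passing that filter already required a difference between the groups. The part of these shifts in the carrier results was not tested, and in bulk RNA fewer cells of a type and less RNA per cell cannot be told apart. Markers of other cells were at 0.396 to 0.964 against 2.13 to 2.40 TPM in sum for 5 myeloid genes, at 3.97 to 5.71 against 0.874 to 1.23 for 5 lymphoid genes (MS4A1 at 0 throughout), at 16.1 to 20.8 against 31.5 to 36.3 for 5 megakaryocyte genes (nearly all ITGA2B, with PF4 and PPBP at 0) and at 0.0721 to 0.158 against 0.0558 to 4.37 for 4 fibroblast and endothelial genes (CDH5 at 0). The 5 mast cell and basophil genes summed to 725 to 885 against 1037 to 1307 TPM, nearly all from the tryptases TPSAB1 and TPSB2, while CPA3 and HDC stayed under 1 TPM.

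Most carriers that changed were lower in the knockdown, but SLC25A37, the most abundant carrier in the knockdown libraries, and 5 others were higher. Of the 48 genes, 38 reached a TPM of 1 in at least 3 of the 6 libraries and were tested with limma on log2(TPM + 1). At an adjusted p under 0.05, 27 of the 38 passed (71.1%), against 53.6% of all 14294 genes tested. Of the 38, 6 (15.8%) rose, where 22.1% of all genes did, and 21 (55.3%) fell, where 31.5% of all genes did. The other 11 did not pass. The median log2 fold change was -0.32 over the 38 carriers and -0.07 over all genes tested, and whether the carriers differ from other genes was not tested. A change of 1 or more on the log2 scale was found in 7 carriers (18.4%, against 11.9% of all genes), with 2 higher (SLC25A37 and SLC25A42) and 5 lower (SLC25A15, SLC25A48, SLC25A10, SLC25A43 and SLC25A32). The 3 values of one group lay wholly above those of the other for 28 carriers (73.7%, against 61.8% of all genes), which are the 27 that passed and SLC25A44. SLC25A48 reached the level for testing through the controls alone and so had to differ. Without it, 26 of 37 carriers passed, 20 of them lower, 6 changed by 1 or more and 27 had groups that did not overlap. With SLC25A48 counted, 6 of the 38 carriers tested lay wholly higher in the knockdown, where 25.8% of all genes tested did. Wholly lower were 22 of the 38, where 35.9% of all genes tested were.

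**Figure D1:**
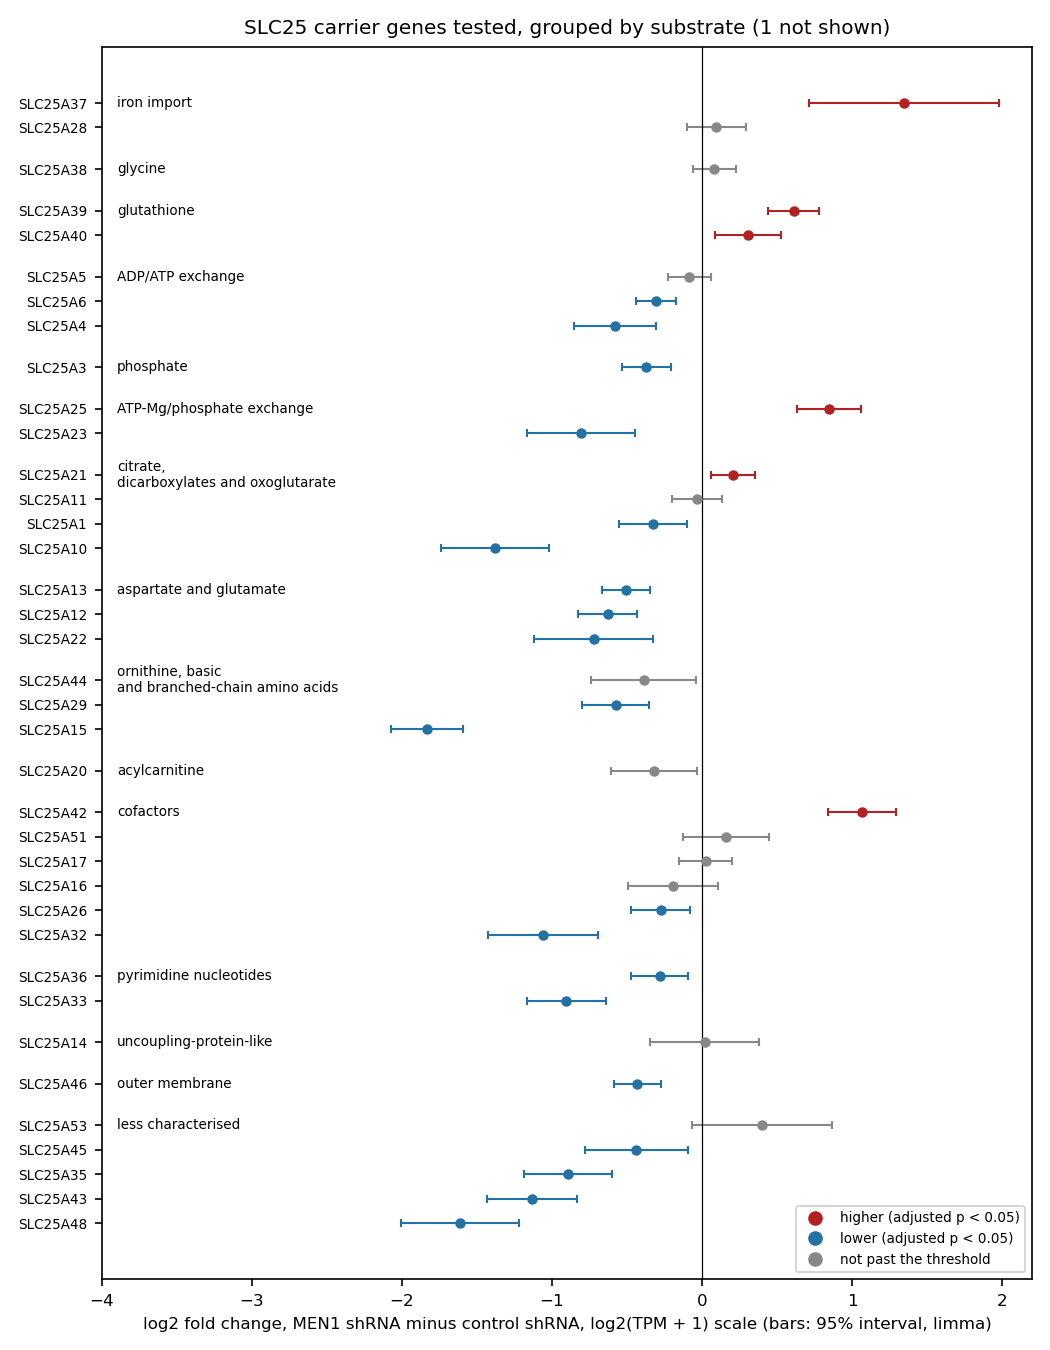
Log2 fold change, MEN1 shRNA minus control shRNA on the log2(TPM + 1) scale, for the carriers tested except 1, ordered by role. Points are limma estimates, bars are 95% confidence intervals and colour marks the call at an adjusted p under 0.05. Rises are few (6) and lie in the iron, glutathione, ATP-Mg, oxodicarboxylate and coenzyme A carriers, and falls are spread over most of the other roles.

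The carriers of heme synthesis did not move together. SLC25A37 (mitoferrin-1, ENSG00000147454, on chromosome 8) is the iron importer of developing red cells. It was at 1204, 1274 and 1299.9 TPM in knockdown replicates 1, 2 and 3 and at 631, 643 and 298 TPM in the controls. All knockdown values exceeded all control values, and control replicate 3 stood far below the other 2 controls. The means were 1259 ± 49.5 and 524 ± 196 TPM (SD, n = 3 each), 2.40-fold apart, with a log2 fold change of 1.35 (SE 0.271, 95% interval 0.71 to 1.98, adjusted p 0.00413). Without control replicate 3 the log2 fold change was 0.98 (adjusted p 0.000233). With gene-level read coverage per unit of depth in place of TPM, it was 1.52 (adjusted p 0.0144). By TPM rank, SLC25A37 was between the 95th and the 106th most abundant gene in the knockdown libraries and between the 171st and the 436th in the controls.

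SLC25A28 (mitoferrin-2, chromosome 10, 99610519 to 99622793, minus strand) is the paralog that imports iron in most other tissues. It was at 22.4, 22.0 and 21.4 TPM in the knockdown and at 18.7, 22.4 and 20.2 TPM in the controls. The groups overlapped, and its log2 fold change was 0.10 (95% interval -0.10 to 0.29, adjusted p 0.370). SLC25A37 made up 98.2, 98.3 and 98.4% of the TPM of both mitoferrins in the knockdown and 97.1, 96.6 and 93.6% in the controls. The means were 98.3 and 95.8% (difference 2.49 percentage points, exact permutation p 0.1, the smallest that 3 against 3 libraries allow). Without control replicate 3 the difference was 1.42 percentage points.

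SLC25A38 (ENSG00000144659, chromosome 3, 39383370 to 39397351, plus strand), the glycine carrier whose loss causes congenital sideroblastic anemia, did not pass the test. Its TPM was 68.5, 65.6 and 62.9 in the knockdown and 63.2, 59.7 and 62.9 in the controls, and the groups overlapped. On the log2 scale the difference was 0.08 (SE 0.0609, adjusted p 0.292), with a 95% interval of -0.06 to 0.22.

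Both mitochondrial glutathione carriers rose. SLC25A39 (ENSG00000013306, chromosome 17, 44319625 to 44324870, minus strand), which brings the antioxidant glutathione into the matrix, was at 503, 559 and 502 TPM in the knockdown and at 363, 314 and 346 TPM in the controls. The groups were well apart, at 521 ± 32.4 and 341 ± 24.9 TPM (SD, n = 3 each), with a log2 fold change of 0.61 (SE 0.0737, adjusted p 0.000357). SLC25A40, its paralog on chromosome 7, was at 23.5, 19.6 and 20.3 TPM against 16.8, 17.9 and 15.8 TPM. Its groups did not overlap but lay close to each other (log2 fold change 0.31, SE 0.0944, adjusted p 0.0266). Its call was lost without knockdown replicate 1 (adjusted p 0.0594), control replicate 1 (0.0640) or control replicate 3 (0.0874). SLC25A39 held 96.1 ± 0.534% of the TPM of this pair in the knockdown and 95.3 ± 0.582% in the controls (SD, n = 3 each, difference 0.823 percentage points, exact permutation p 0.3). Without control replicate 2 that difference was 0.487.

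**Figure D2:**
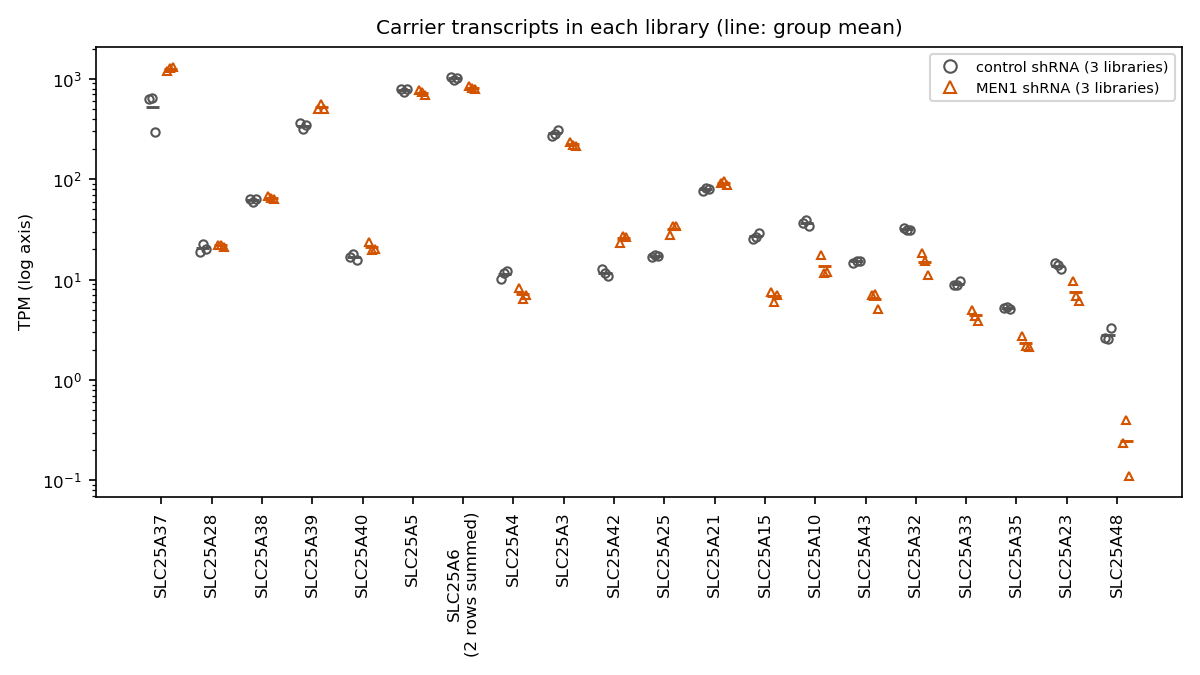
TPM of carriers in each library, 3 MEN1 shRNA and 3 control shRNA libraries per gene, on a log axis, with points for libraries and lines for group means. SLC25A37 shows 1 control library, replicate 3 at 298 TPM, far below the other controls, and SLC25A15, SLC25A10 and SLC25A43 show wide gaps between groups.

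The carriers that serve oxidative phosphorylation fell or did not pass. ADP/ATP carriers exchange cytosolic ADP for matrix ATP, and SLC25A3 imports the phosphate that ATP synthase uses. SLC25A5, the entry with the highest TPM in the controls, was at 769, 737 and 684 TPM in the knockdown and at 785, 745 and 791 TPM in the controls. Its groups overlapped, and the log2 fold change was -0.09 (95% interval -0.23 to 0.06, adjusted p 0.281).

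SLC25A6 was listed at 425, 403 and 392 TPM for its X copy against 519, 482 and 506 TPM in the controls. The Y copy was listed at 432, 409 and 398 against 527, 489.8 and 513 TPM. Since both copies have the same position (1386152 to 1392113, minus strand) and near-identical values, how the reads of this gene were divided between them cannot be read from the tables, and they were counted as 1 gene. Summed, they fell from 1012 ± 37.6 to 819.8 ± 34.2 TPM (SD, n = 3 each, log2 fold change -0.30, adjusted p 0.00305). SLC25A4, the ADP/ATP carrier of heart and skeletal muscle, fell from 10.2, 11.6 and 12.1 TPM to 8.25, 6.45 and 7.02 TPM (log2 fold change -0.58, SE 0.118, adjusted p 0.00435). Neither gene had overlapping groups.

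SLC25A6 made up 52.4, 52.2 and 53.4% of ADP/ATP carrier TPM in the knockdown and 56.8, 56.2 and 55.9% in the controls (difference -3.65 percentage points, exact permutation p 0.1). All knockdown libraries lay below all controls in this share. The summed TPM of these carriers was 1557 ± 77.0 in the knockdown, or 86.6% of the control sum of 1797 ± 60.4 (SD, n = 3 each, exact permutation p 0.1). The SLC25A6 share, this sum and the family's summed TPM add both copies of SLC25A6. They would be lower if the same reads were listed on both, which cannot be told. The phosphate carrier SLC25A3 (chromosome 12, 98593591 to 98606379, plus strand) fell from 270.3, 284 and 308 TPM to 237, 217 and 213 TPM, with no overlap (log2 fold change -0.37, SE 0.0701, adjusted p 0.00311). By coverage the fall was smaller (-0.19, adjusted p 0.0130).

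Of the ATP-Mg/phosphate carriers, which shift adenine nucleotides into or out of the matrix in response to calcium, 1 rose and 1 fell. SLC25A25 (chromosome 9) was at 28.0, 34.1 and 33.9 TPM in the knockdown and at 16.9, 17.6 and 17.4 TPM in the controls. Its controls lay within 1 TPM of each other and below all knockdown libraries (1.85-fold, log2 fold change 0.85, SE 0.0922, adjusted p 0.000226). SLC25A23 (chromosome 19) was at 9.69, 6.92 and 6.19 TPM against 14.8, 14.0 and 12.7 TPM. Here the knockdown libraries were all lower, with replicate 1 nearest to the controls (log2 fold change -0.80, SE 0.155, adjusted p 0.00338).

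The carriers of citric acid cycle intermediates did not share a direction. SLC25A10, which exchanges dicarboxylates such as malate and succinate for phosphate, was at 17.8, 11.7 and 11.9 TPM in the knockdown and at 37.0, 39.4 and 34.4 TPM in the controls. All knockdown libraries were far below the controls (2.68-fold, log2 fold change -1.38, SE 0.154, adjusted p 0.000257). The citrate carrier SLC25A1, which exports citrate for lipid synthesis, had means of 65.3 ± 9.16 and 81.6 ± 1.46 TPM (SD, n = 3 each, log2 fold change -0.33, adjusted p 0.0244). This call was lost without any one of the libraries except knockdown replicate 1 (adjusted p 0.0521 to 0.0689). It was lost as well when TPM was rescaled without globin and mitochondrially encoded genes (adjusted p 0.0610). The oxoglutarate carrier SLC25A11, part of the malate-aspartate shuttle, did not pass (means of 47.3 and 48.4 TPM, log2 fold change -0.04, 95% interval -0.20 to 0.13, adjusted p 0.705). SLC25A21, the carrier of oxodicarboxylates, was at 92.8, 95.7 and 86.7 TPM against 75.6, 80.9 and 80.9 TPM in the controls. It was higher in all knockdown libraries by a narrow margin (log2 fold change 0.21, SE 0.0630, adjusted p 0.0241). That call was lost without knockdown replicate 2 (adjusted p 0.0835) or control replicate 1 (0.0762). By coverage the rise of SLC25A21 was 0.18 and did not pass (adjusted p 0.0598).

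All 3 aspartate and glutamate carriers tested fell. SLC25A12 and SLC25A13, the aspartate/glutamate exchangers of the malate-aspartate shuttle, had log2 fold changes of -0.63 (adjusted p 0.000582) and -0.51 (adjusted p 0.000589). SLC25A13 was the more abundant of the pair, at 27.6 ± 0.954 TPM against 39.7 ± 1.87 in the controls (SD, n = 3 each). Its share of the pair was 76.9 ± 1.50% in the knockdown and 74.8 ± 0.927% in the controls (difference 2.09 percentage points, exact permutation p 0.2). Without knockdown replicate 3 the difference was 1.26. SLC25A22, a glutamate carrier, had means of 8.22 ± 2.03 and 14.0 ± 1.54 TPM (SD, n = 3 each, log2 fold change -0.72, adjusted p 0.00878).

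On the log2(TPM + 1) scale the largest fall among the carriers was that of SLC25A15 (ENSG00000102743, chromosome 13, 40789412 to 40812460, plus strand), which exchanges ornithine and citrulline across the inner membrane and is best known from the urea cycle. Its TPM was 7.49, 6.00 and 7.10 in the knockdown and 25.4, 26.5 and 29.0 in the controls. The gap between the groups was many times the spread within either (6.86 ± 0.772 against 27.0 ± 1.86 TPM, SD, n = 3 each, 3.93-fold, log2 fold change -1.83, SE 0.103, adjusted p 2.52e-05). SLC25A29, a carrier of basic amino acids, fell as well (log2 fold change -0.57, adjusted p 0.00169). By coverage the value was -0.30 and did not pass (adjusted p 0.0890). SLC25A44, which carries branched-chain amino acids, had log2 fold change -0.39 and did not pass (adjusted p 0.0597), and SLC25A20, the acylcarnitine carrier of fatty acid oxidation, had -0.32 (adjusted p 0.0614).

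Cofactor carriers included the second largest rise and several falls. SLC25A42 (ENSG00000181035, chromosome 19), which carries coenzyme A, was at 23.2, 27.3 and 26.6 TPM in the knockdown and at 12.8, 11.7 and 10.8 TPM in the controls. No knockdown library came near a control (25.7 ± 2.17 against 11.8 ± 0.983 TPM, SD, n = 3 each, 2.18-fold, log2 fold change 1.06, SE 0.0971, adjusted p 0.000109). SLC25A32, the folate and flavin carrier on chromosome 8, was at 18.3, 15.4 and 11.1 TPM against 32.5, 31.6 and 30.9 TPM in the controls. Its knockdown libraries were spread widely but all lay below the tightly grouped controls (2.12-fold, log2 fold change -1.06, SE 0.157, adjusted p 0.000938). SLC25A26, the S-adenosylmethionine carrier, fell with a log2 fold change of -0.28 (adjusted p 0.0261). The fall of SLC25A26 was -0.12 by coverage and did not pass there (adjusted p 0.255). It did not pass either without any one of the knockdown libraries (adjusted p 0.0529 to 0.0618) or without control replicate 3 (0.0949). SLC25A51, the NAD+ carrier, was not called (log2 fold change 0.16, adjusted p 0.309), nor were SLC25A17, a carrier of peroxisomes (0.03, adjusted p 0.806), and SLC25A16 (-0.19, adjusted p 0.248).

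Both pyrimidine nucleotide carriers, which supply the matrix for mitochondrial DNA and RNA synthesis, fell. SLC25A33 (chromosome 1, 9539465 to 9585173, plus strand) was at 5.01, 4.36 and 3.89 TPM in the knockdown and at 8.93, 8.80 and 9.59 TPM in the controls. The groups were clearly apart (2.06-fold, log2 fold change -0.90, SE 0.114, adjusted p 0.000432). SLC25A36 changed less, with a log2 fold change of -0.28 (adjusted p 0.0212), and by coverage it did not pass (-0.18, adjusted p 0.453). Leaving out knockdown replicate 2 or 3 or control replicate 2 or 3 ended its call as well (adjusted p 0.0569 to 0.0698).

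SLC25A46, an outer membrane member that takes part in mitochondrial fission and fusion, fell from 36.6 ± 0.847 to 26.9 ± 1.32 TPM (SD, n = 3 each, log2 fold change -0.43, adjusted p 0.00120). Among less characterised carriers, SLC25A43 (chromosome X) was at 7.08, 7.19 and 5.15 TPM in the knockdown and at 14.8, 15.5 and 15.5 TPM in the controls. All its knockdown values were lower than any control (2.36-fold, log2 fold change -1.13, SE 0.128, adjusted p 0.000265). SLC25A35 was at 2.77, 2.18 and 2.12 TPM against 5.17, 5.38 and 5.05 TPM, again without overlap (2.21-fold, log2 fold change -0.89, SE 0.126, adjusted p 0.000761). SLC25A45 had a log2 fold change of -0.44 (adjusted p 0.0371), a call lost without knockdown replicate 2 or 3 or control replicate 2 or 3 (adjusted p 0.0637 to 0.120).

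SLC25A48, linked to choline transport, was at 0.235, 0.396 and 0.110 TPM in the knockdown and at 2.59, 2.54 and 3.28 TPM in the controls (log2 fold change -1.61, SE 0.169, adjusted p 0.000192). It reached the level needed for testing in the controls alone, so that passing the filter already required a difference between the groups. An unnamed gene on the same strand (ENSG00000250167) that overlaps it by 161319 bases went from 2.79 ± 0.789 to 0.171 ± 0.263 TPM (SD, n = 3 each), and the part of read assignment was not tested. The size of the log2 fold change of SLC25A48 depends on the added constant: it was -3.14 with a pseudocount of 0.1, -1.03 from FPKM and -0.15 from coverage, where 1 was added to values of 0.00941 to 0.0131 in the knockdown and 0.110 to 0.132 in the controls.

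The uncoupling-protein-like SLC25A14 (log2 fold change 0.02, 95% interval -0.35 to 0.38, adjusted p 0.935) and the less characterised SLC25A53 (0.40, 95% interval -0.07 to 0.87, adjusted p 0.132) complete the genes that did not pass. The 10 carriers below the level for testing were SLC25A2, SLC25A18, SLC25A24, SLC25A27, SLC25A30, SLC25A31, SLC25A34, SLC25A41, SLC25A47 and SLC25A52. None exceeded 1.39 TPM, the value of SLC25A30 in control replicate 3, and none was at 0 in all 6 libraries.

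Within the knockdown group, replicate 1 was the library nearest to the controls for 15 of the 21 carriers that fell and for 3 of the 6 that rose. With the deposited coverage per unit of depth in place of TPM, all 27 called carriers had the same direction, and 23 passed there too.

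As a share of the transcriptome the family lay higher in the knockdown, and without SLC25A37 it lay lower. The carriers' summed TPM was 4306, 4298 and 4157 in the knockdown and 3903, 3787 and 3586 in the controls. Every knockdown library was above every control, with means of 4253 ± 83.5 and 3759 ± 160.1 TPM (SD, n = 3 each, 113% of control, exact permutation p 0.1). Without SLC25A37 the sums were 3102, 3024 and 2857 against 3272, 3145 and 3288 TPM, and every knockdown library lay below every control (92.6% of control, exact permutation p 0.1). This second sum was not planned, and it leaves out the carrier with the largest rise. Its fall also depends on the TPM scale. When each library is scaled instead by the median ratio of its genes, the groups of this second sum overlap. Those scaling factors were 0.962 to 0.982 in the knockdown and 1.01 to 1.05 in the controls.

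SLC25A37 held 28.0, 29.6 and 31.3% of all carrier TPM in the knockdown and 16.2, 17.0 and 8.31% in the controls. The 5 genes SLC25A37, SLC25A5, SLC25A6, SLC25A39 and SLC25A3 together held 83.5 ± 0.527% and 78.1 ± 1.15% (SD, n = 3 each). These shares were higher in every knockdown library than in any control.

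**Figure D3:**
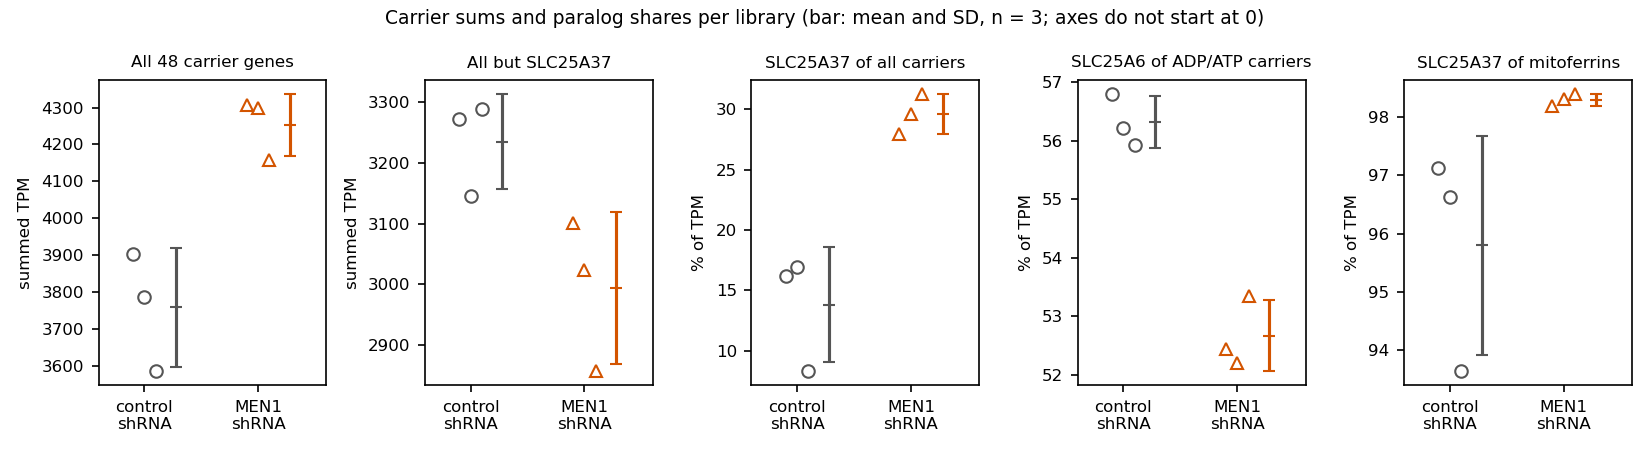
Summed TPM of the carriers with and without SLC25A37, and shares of paralogs in percent, for 3 MEN1 shRNA and 3 control shRNA libraries. Points are libraries and bars are group means with SD (n = 3), on axes that do not start at 0. The total is higher with the MEN1 shRNA (4253 against 3759 TPM), and without SLC25A37 it is lower (2994 against 3235 TPM).

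Neighbouring and overlapping genes were examined because the labels' protocols name a strand-specific kit but do not state whether reads were counted by strand. A gene that reached 1 TPM in a library overlapped 19 carriers, with 16 such overlaps on the opposite strand and 5 on the same strand. SLC25A32 overlaps DCAF13 by 476 bases on the other strand, and DCAF13 fell from 109.9 ± 6.17 to 37.8 ± 3.58 TPM (SD, n = 3 each, log2 fold change -1.52, adjusted p 2.43e-05). SLC25A35 overlaps RANGRF by 1439 bases on the other strand, and RANGRF, at 15.6 ± 1.07 TPM (SD, n = 3) in the knockdown, fell too (log2 fold change -1.50, adjusted p 2.76e-05). SLC25A23 overlaps CRB3 by 1427 bases, where CRB3 rose from 0.0143 to 1.85 TPM while SLC25A23 fell. The longest overlap on the other strand was that of SLC25A12 with HAT1 (61239 bases), where HAT1 rose from 139 ± 3.21 to 171 ± 8.01 TPM (SD, n = 3 each, log2 fold change 0.30, adjusted p 0.00324) while SLC25A12 fell. The share of reads in such overlaps was not tested. Among carriers that lie next to each other, SLC25A43 fell while SLC25A5, 13943 bases away on chromosome X, did not pass.

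The promoters of the carriers were searched for 5 motifs in the 250 bases before the transcription start, with sequences from RefSeq (GRCh38.p14). The table held 51 promoters for 40 of the 48 genes, and motifs were searched on both strands. The GATA-type motif AGATAA was found in 3 of 51 carrier promoters (5.88%) and in 9.17% of 35116 promoters of all genes. The E-box CACGTG, the letters that MYC and related factors recognise, was found in 8 of 51 (15.7%) and in 6.34% of all promoters. By gene, these 8 were SLC25A13, SLC25A26, SLC25A31, SLC25A33, SLC25A36, SLC25A38, SLC25A46 and SLC25A51. Of the genes with a promoter in the table, 5 of 18 that fell, 0 of 5 that rose and 2 of 10 that did not pass had an E-box. The NRF1 motif was in 7.84% of carrier promoters against 5.07% of all, the ETS-type motif CCGGAAGT in 7.84% against 3.42%, and the CCAAT box in 43.1% against 32.0%. The GATA-type, NRF1 and ETS-type motifs were also found in 0 of the 5 genes that rose. They were found in 2, 1 and 2 of the 18 that fell and in 0, 1 and 1 of the 10 that did not pass. A CCAAT box was found in 3 of 5 that rose, 11 of 18 that fell and 4 of 10 that did not pass. These shares and counts are descriptions with no test, and promoters of the same gene share sequence.

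The promoters of 4 carriers are printed as examples: SLC25A42 and SLC25A39, which rose, and SLC25A15 and SLC25A33, which fell. They were chosen after their values were seen. Each is 250 bases, 5′ to 3′ on the gene's strand and ending just before the start that RefSeq gives, with motif matches in capitals. In SLC25A15 and SLC25A39 that start lies within the gene as the deposited tables list it, so that 199 and 47 of the bases shown fall inside it. SLC25A42 lies at chr19:19063744-19063993 on the plus strand, SLC25A39 at chr17:44324824-44325073 on the minus strand, SLC25A15 at chr13:40789361-40789610 on the plus strand and SLC25A33 at chr1:9539215-9539464 on the plus strand.
SLC25A42: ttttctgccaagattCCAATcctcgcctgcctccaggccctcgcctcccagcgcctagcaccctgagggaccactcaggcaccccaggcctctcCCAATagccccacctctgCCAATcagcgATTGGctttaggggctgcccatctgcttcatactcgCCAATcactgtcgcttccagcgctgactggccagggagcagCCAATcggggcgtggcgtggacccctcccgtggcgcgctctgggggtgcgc
SLC25A39: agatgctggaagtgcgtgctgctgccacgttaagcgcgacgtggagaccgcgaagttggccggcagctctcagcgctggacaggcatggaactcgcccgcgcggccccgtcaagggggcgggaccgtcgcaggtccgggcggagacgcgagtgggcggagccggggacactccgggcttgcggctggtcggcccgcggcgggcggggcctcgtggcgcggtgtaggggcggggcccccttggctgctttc
SLC25A15: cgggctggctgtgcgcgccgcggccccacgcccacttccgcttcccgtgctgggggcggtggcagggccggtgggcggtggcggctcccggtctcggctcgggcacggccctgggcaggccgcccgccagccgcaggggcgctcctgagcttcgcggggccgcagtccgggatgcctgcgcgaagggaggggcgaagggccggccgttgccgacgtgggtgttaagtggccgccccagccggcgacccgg
SLC25A33: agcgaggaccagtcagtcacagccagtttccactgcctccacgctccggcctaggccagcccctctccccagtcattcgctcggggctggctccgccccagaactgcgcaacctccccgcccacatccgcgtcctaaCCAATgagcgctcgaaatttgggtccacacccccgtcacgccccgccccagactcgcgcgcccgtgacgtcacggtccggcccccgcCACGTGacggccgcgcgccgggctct
The SLC25A42 promoter holds 6 CCAAT boxes counted over both strands and none of the other motifs. That of SLC25A33 holds 1 CCAAT box and, close to the start, 1 E-box. In the windows of SLC25A39, which rose, and SLC25A15, which fell, none of the 5 motifs was matched.

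Genes that work with the carriers were read from the same fit. The import route that brings carrier proteins to the inner membrane fell in 13 of 16 genes, and none rose (3 did not pass, median log2 fold change -0.44, against -0.07 over all genes). These are 81.2% lower and 0% higher, where 31.5% of all genes tested were lower and 22.1% higher. TOMM40, the channel of the outer membrane, went from 244 ± 17.2 to 116 ± 5.66 TPM (SD, n = 3 each, log2 fold change -1.06, adjusted p 3.51e-05). TOMM22, a receptor of that complex, had a log2 fold change of -0.76 (adjusted p 0.000149), and the small chaperone TIMM10B had -0.68 (adjusted p 0.000138).

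Mitochondrial heme and iron genes mostly rose, as SLC25A37 did: 7 of 12 were higher (58.3%, against 22.1% of all genes), 3 lower (25%, against 31.5%) and 2 did not pass (median 0.36). ALAS2, the erythroid enzyme that joins glycine to succinyl-CoA, went from 383 ± 39.0 to 780.4 ± 25.3 TPM (SD, n = 3 each, log2 fold change 1.03, adjusted p 6.10e-05). In control replicate 3, where SLC25A37 was lowest, ALAS2 was at 420.1 TPM, the highest of the controls. CPOX, which acts on coproporphyrinogen, had a log2 fold change of 1.33 (adjusted p 9.88e-05), and FAM210B, a mitochondrial protein of erythroid heme synthesis, had 1.01 (adjusted p 2.42e-05). The heme genes did not share a direction in control replicate 3: unlike ALAS2, CPOX had its lowest control value there (117.6 TPM), as SLC25A37 did.

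Of 18 other inner membrane transporters, 4 rose (22.2%), 7 fell (38.9%) and 7 did not pass (median -0.08), which is near the shares over all genes of 22.1% higher and 31.5% lower. ABCB10, which is known to bind and stabilise SLC25A37, rose from 147 ± 5.38 to 281 ± 13.3 TPM (SD, n = 3 each, log2 fold change 0.93, adjusted p 3.25e-05). The sideroflexins SFXN2 and SFXN4 fell, with log2 fold changes of -1.55 (adjusted p 0.000273) and -1.40 (adjusted p 4.81e-05). Regulators of mitochondrial biogenesis and transcription fell in 8 of 10 genes tested, of 11 listed (80%, against 31.5% of all genes), and none rose (median -0.49). PPARGC1B, a coactivator of respiratory genes, had a log2 fold change of -1.23 (adjusted p 0.000227), the transcription factor TFB2M had -0.89 (adjusted p 0.000363) and the mitochondrial RNA polymerase POLRMT had -0.74 (adjusted p 0.000233).

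Carrier family members with other symbols included 3 that rose and 1 that fell among 4 tested, of 5 listed. These are 75% higher and 25% lower, where 22.1% of all genes tested were higher and 31.5% lower. UCP2, an uncoupling protein that transports metabolites, was at 1135, 1156 and 1080.0 TPM in the knockdown and at 673, 608 and 689 TPM in the controls. Its groups were far apart (log2 fold change 0.78, SE 0.0647, adjusted p 7.96e-05). MTCH2, an outer membrane insertase, fell from 140.0 ± 8.95 to 88.2 ± 1.76 TPM (SD, n = 3 each, log2 fold change -0.66, adjusted p 0.000131). UCP3, the uncoupling protein of muscle, rose to 2.97 TPM from 1.14 (log2 fold change 0.91, adjusted p 0.00302).

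**Figure D4:**
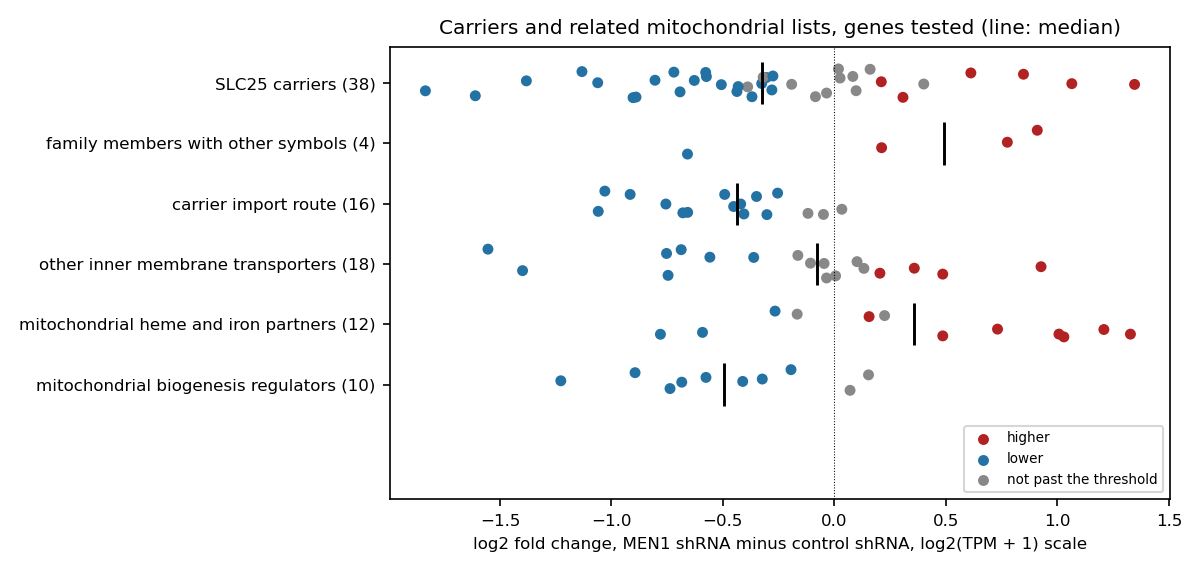
Log2 fold changes, MEN1 shRNA minus control shRNA on the log2(TPM + 1) scale, of the genes tested in each list. Points are genes, colour marks the call and the black line is the list's median. Genes of the carrier import route and of mitochondrial biogenesis include no rise, and heme and iron partners have a median of 0.36.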

How the data were processed

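Poly(A) RNA from 6 HUDEP-2 libraries was made into libraries with a directional kit, per the labels' protocols. The submitters' processing notes name FastQC, Trimmomatic, STAR 2.7.1a, Picard 2.20.4, StringTie 2.0.4 and the hg38 build, with no roles. The deposited tables give gene-level TPM (which sums to the same total in each library), FPKM and mean read coverage, per the file headers. Coverage is not scaled for depth and was divided here by the depth it implies, with paired 151-base reads assumed. The tables list no read counts, and none were recovered for a count test. In control replicate 2, values of 2 genes were just below 0 and were set to 0.

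The 14294 genes that reached 1 TPM in 3 or more of the 6 libraries were fitted on log2(TPM + 1), which understates the change of low genes, with limma 3.58.1 in R 4.3.3 (lmFit, eBayes with trend), as a 2-sided test. P-values were adjusted over all of them by Benjamini-Hochberg, with 0.05 as the threshold. Every adjusted p is from limma. Sums and shares were compared with 2-sided exact permutation tests. Tables, promoters and figures were made with Python 3.11.15, pandas 2.3.3 and matplotlib 3.10.9. The fit was first tested on simulated data.

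The members, their roles and the related lists were chosen with earlier results of these data known. Full values are given for the iron, glycine, glutathione, ADP/ATP (SLC25A31 was not tested) and phosphate carriers and for the 8 other carriers with the largest rise (only 3 rose) and the 8 with the largest fall whose mean reached 2 TPM in a group. Of the carriers tested, 1 is counted but not reported by name here. Each related list is represented by up to 3 called genes, those of lowest adjusted p. SLC25A22, SLC25A13, SLC25A1 and SLC25A46 are given by means, and CRB3, DCAF13, HAT1 and RANGRF were named after their values were seen. Alternatives were another pseudocount (0.1), FPKM, filters, scalings, weights, no trend, a replicate block and leaving out each library. The use of coverage and the summing of the SLC25A6 copies were added after the data were seen. The sum without SLC25A37, the sum of the ADP/ATP carriers and the shares of all carrier TPM were not planned in advance.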

Additional observations from a re-analysis of the deposited data

How the results depend on the processing

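Of 681 comparisons of a single carrier with its value under an alternative, 614 kept direction and side of the threshold, 47 lost the call, 9 gained it and 11 changed sign. Of the 27 called carriers, 20 (4 higher: SLC25A37, SLC25A39, SLC25A25 and SLC25A42; 16 lower) kept the call under every alternative run on them. The other 7 were SLC25A1, SLC25A21, SLC25A26, SLC25A29, SLC25A36, SLC25A40 and SLC25A45. Of these, SLC25A1, SLC25A26, SLC25A36 and SLC25A45 lost the call with median-of-ratios scaling and with quantile normalization. These same genes lost it when rescaled without globin and mitochondrially encoded genes (adjusted p 0.0582 to 0.200 over these settings). The sign changes were all in carriers that had not passed: SLC25A11 (0.0510 with median-of-ratios scaling, 0.0437 with quantile normalization, 0.0304 rescaled without globin and mitochondrially encoded genes, and -0.0938 to 0.000752 with 1 library left out), SLC25A5 (0.00282 with median-of-ratios scaling), SLC25A53 (-0.0318 by coverage), SLC25A14 (-0.119 to 0.137 with 1 library left out) and SLC25A17 (-0.0162 to 0.0846 with 1 library left out); the cause was not tested. Leaving out 1 library at a time gave 22 to 26 carriers past the threshold (4 to 7 higher, 17 to 21 lower), a median of -0.40 to -0.26 and a summed carrier TPM 10.6 to 15.4% above control. Rescaled without globin and mitochondrially encoded genes, the summed TPM was 18.6% above control. Deviations of same-numbered libraries from their group means had correlations of 0.02, -0.03 and -0.01. Libraries handled together can lack a shared deviation, so whether the numbers pair them cannot be told. With the replicate block 23 carriers passed (4 higher, 19 lower), and 7012 of all genes did: SLC25A21, SLC25A26, SLC25A36, SLC25A40 and SLC25A45 lost the call and SLC25A44 gained it. With no filter on low values all 48 carriers were tested and 25 passed, among them SLC25A24, which is too low for the filter.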

Other observations

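The tables also list 44 processed pseudogenes of 15 carriers. For none of these carriers did the pseudogenes reach a summed mean of 1 TPM. The highest sum, 0.992 TPM, belonged to pseudogenes of SLC25A5.

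SLC25A24, an ATP-Mg/phosphate carrier below the level set for testing, was listed at 0.372, 0.397 and 0.466 TPM in the knockdown libraries and at 0.0409, 0 and 0.145 TPM in the controls. Its groups did not overlap. In the fit with no filter on low values limma gave a log2 fold change of 0.41 (adjusted p 0.0106), and the other 9 carriers below that level did not pass there (adjusted p 0.355 to 0.955).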
